A study of Mus musculus with 8 samples.

Results

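The genes described here are 10 angiogenic factors and receptors, Vegfa, Vegfb, Vegfc, Kdr, Flt1, Nrp1, Nrp2, Angpt1, Angpt2 and Angptl4, measured by RNA-seq in mouse bone marrow mesenchymal stem and progenitor cells (MSPCs). They were chosen by name, by matching the Ensembl identifiers in the count table to these symbols, and all 10 were found among 52636 genes. MSPCs surround the blood vessels of the marrow and make growth factors on which hematopoietic stem cells depend, and the study asked whether these niche cells change when hematopoietic progenitors lose the chemokine receptor CXCR4. Each of the 8 libraries came from 1 C57BL/6 mouse, 4 with the genotype Flk2-cre+ Cxcr4fl/+ (CTR) and 4 with Flk2-cre+ Cxcr4fl/fl (cKO). CTR and cKO mice thus both carried the Flk2-cre transgene, which sits on the Y chromosome, and at least 1 floxed Cxcr4 allele. Cre driven by Flk2 acts in multipotent progenitors and the blood cells derived from them, so in this model the sorted MSPCs are not the cells meant to lose Cxcr4. All mice carried GFP at the Kitl locus, which encodes SCF, and the sort took GFP+ PDGFRα+ cells without CD45, Ter119, CD31 or CD144. The sample labels give an age of 6 weeks for every mouse, whereas the methods give 8 to 20 weeks.

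Vascular endothelial growth factors (VEGFs) are secreted proteins that drive the growth and permeability of blood and lymphatic vessels. They act on receptor tyrosine kinases carried mainly by endothelial cells, VEGFR1 (Flt1), VEGFR2 (Kdr) and VEGFR3 (Flt4), and neuropilins serve as co-receptors for them and for class 3 semaphorins. Angiopoietins act on the endothelial receptor TIE2 (Tek), where angiopoietin 1 stabilizes vessels and angiopoietin 2 largely antagonizes it. Angptl4 is related to the angiopoietins by structure, does not use TIE2, and is best known as an inhibitor of lipoprotein lipase. In the marrow, perivascular mesenchymal cells that express the leptin receptor are a known source of Angpt1.

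In these MSPCs the neuropilins, Angptl4 and the ligands among the 10 genes had reads in every library, with Vegfb lowest at 615 to 865 counts. The receptor tyrosine kinases Kdr and Flt1 were at or near 0. RefSeq promoter sequences on GRCm38.p6 were found for 7 of the 10 genes. Shown here, 5′ to 3′ on the strand of each gene, are the 250 bases before the start of Vegfc, the most abundant VEGF ligand, at chr8:54077282-54077531 (+ strand), and of the receptors Kdr, at chr5:75978456-75978705 (- strand), and Flt1, at chr5:147726012-147726261 (- strand), which had few or no reads. The starts are those of RefSeq, so the Vegfc and Kdr stretches do not exactly adjoin the gene positions given below, which come from GENCODE. Capitals would mark ACGTG or its reverse complement CACGT, the core letters of the hypoxia response element.
Vegfc: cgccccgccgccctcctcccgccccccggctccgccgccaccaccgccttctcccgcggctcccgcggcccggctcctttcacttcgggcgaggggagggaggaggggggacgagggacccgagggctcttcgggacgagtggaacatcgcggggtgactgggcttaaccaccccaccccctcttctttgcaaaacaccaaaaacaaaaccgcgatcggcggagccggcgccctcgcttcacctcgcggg
Kdr: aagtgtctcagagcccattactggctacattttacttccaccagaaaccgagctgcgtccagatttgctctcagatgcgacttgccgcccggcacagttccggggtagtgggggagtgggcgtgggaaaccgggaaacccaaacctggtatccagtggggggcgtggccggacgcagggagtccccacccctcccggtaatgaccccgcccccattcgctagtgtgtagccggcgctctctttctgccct
Flt1: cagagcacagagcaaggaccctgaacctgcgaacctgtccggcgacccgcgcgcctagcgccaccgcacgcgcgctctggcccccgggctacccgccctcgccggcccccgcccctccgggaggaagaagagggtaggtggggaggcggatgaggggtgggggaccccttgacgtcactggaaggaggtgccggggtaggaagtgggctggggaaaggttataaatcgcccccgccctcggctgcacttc
The Vegfc window holds 30 CpG dinucleotides (percentile 94.1 among 32851 windows of the same length), the Kdr window 16 (percentile 74.6) and the Flt1 window 23 (percentile 86.7), against a median of 6. The receptors with few or no reads thus have, like Vegfc, more CpG in this window than most genes. Neither ACGTG nor CACGT occurs in these 3 windows, whereas 16.6% of all windows hold a match on either strand. Among the 7 genes a match was found only upstream of an alternative start of Vegfa, and the absence of these letters says nothing about sites outside the window.

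The deposited values are counts of reads per gene, which were scaled for library size to counts per 1000000 counted reads (CPM), and levels of different genes are compared only after division by exon length in kilobases. The libraries held 31047344 to 38216877 counted reads and 18366 to 20684 genes with a count. Lepr, the leptin receptor that marks these cells, had a mean of 4420 CPM, and Cxcl12, their main chemokine, ranged from 39570 to 50610 CPM. Of the genes for the proteins used to remove other cells, Pecam1 (CD31) was at 0 to 52 counts, Cdh5 (CD144) at 0 to 20 counts and Ptprc (CD45) at 0 to 32 counts per library. Red cell RNA was higher, with the globin Hbb-bs at 949 to 3713 counts and Hba-a1 at 578 to 2003. The 18 hematopoietic markers summed to 242.6 to 324.3 CPM in CTR and 247.6 to 344.5 CPM in cKO. Of the 10 tested between genotypes as described below, 9 were higher in cKO and 1 was lower, and 0 passed the adjusted threshold. Their median log2 difference was 0.45, against -0.00133 over all genes tested. Over 14 endothelial markers, the summed level was 11.53 to 15.21 CPM in CTR and 7.182 to 15.34 CPM in cKO, and Robo4, Sox17 and Cd34 were at 0 in every library.

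Vegfa, the main growth factor of blood vessel endothelium, is encoded on chromosome 17 (46016993 to 46032369, - strand, ENSMUSG00000023951.17, GRCm38 as for all positions here). Its level was 222, 247, 162 and 117 CPM in CTR replicates 1 to 4 and 152, 141, 95.4 and 223 CPM in cKO replicates 1 to 4. Vegfa varied 2.59-fold between the lowest and the highest library, and the genotypes overlapped, with cKO replicate 4 between the highest CTR libraries. In edgeR's quasi-likelihood test the difference of cKO from CTR was -0.29 on the log2 scale (standard error 0.28, 95% interval -0.91 to 0.33, Benjamini-Hochberg adjusted p = 0.999), within the spread between mice.

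Vegfb (chromosome 19, 6982473 to 6987651, - strand, ENSMUSG00000024962.13), a ligand of VEGFR1, was the lowest of the 8 genes that had a count in every library. It was measured at 25.1, 20.4, 26.8 and 17.35 CPM in CTR and at 20.3, 17.5, 23.1 and 22.0 CPM in cKO, and every cKO library lay within the CTR range. Its log2 difference was -0.11 (standard error 0.18, 95% interval -0.51 to 0.28).

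Vegfc (chromosome 8, 54077606 to 54187096, + strand, ENSMUSG00000031520.6), the growth factor of lymphatic vessels that binds VEGFR3, was the most abundant VEGF. Its level was 433, 256.2, 416 and 340.2 CPM in CTR and 427, 400.4, 379 and 396 CPM in cKO. The cKO libraries lay close together within the CTR range, whose lower end was CTR replicate 2. The log2 difference was 0.15 (standard error 0.15, 95% interval -0.19 to 0.49), and it was 0.0098 without CTR replicate 2.

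Angpt1 (chromosome 15, 42424723 to 42676977, - strand, ENSMUSG00000022309.9), the activating ligand of TIE2, was measured at 432, 280.3, 444 and 374 CPM in CTR and at 520.1, 407, 398 and 357 CPM in cKO. The highest library was cKO replicate 1 and the lowest was CTR replicate 2, and the other cKO libraries lay within the CTR range. The log2 difference was 0.14 (standard error 0.16, 95% interval -0.23 to 0.50), and it was 0.00659 without CTR replicate 2. Exons of Angpt1 share 737 bases with the antisense gene Gm17473, which had 895 to 1739 counts against 9171 to 17018 for Angpt1. Because the use of strand in counting is not stated, the reads of these genes in the shared stretch cannot be told apart.

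Angpt2 (chromosome 8, 18690263 to 18741562, - strand, ENSMUSG00000031465.6), the context-dependent antagonist of Angpt1, lies within an intron of Mcph1 and shares no exon base with it. Its level was 72.55, 94.3, 87.7 and 119 CPM in CTR and 55.0, 120.2, 65.6 and 106 CPM in cKO. Each genotype held low and high libraries, with cKO replicates 1 and 3 lowest and cKO replicate 2 highest of all 8. The log2 difference between genotypes was -0.10 (standard error 0.25, 95% interval -0.66 to 0.45), and it turned to 0.0563 without cKO replicate 1.

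Angptl4 (chromosome 17, 33773750 to 33781830, - strand, ENSMUSG00000002289.16) had the highest mean CPM of the 10 genes, at rank 116 of all genes, without division by exon length. Its mean of 837.8 CPM was close to that of Nrp1 (817.2), which was higher in some libraries, such as CTR replicate 4 (847.5 against 476 CPM). It was measured at 689.9, 686, 1094 and 476 CPM in CTR and at 1375, 788, 1024 and 569.7 CPM in cKO. The libraries spanned a 2.89-fold range, with the lowest in CTR and the highest in cKO, and the genotypes overlapped. The log2 difference of 0.35 (standard error 0.29, 95% interval -0.30 to 1.00, edgeR unadjusted p = 0.258, adjusted p = 0.999) was the largest of the 8 in size. It was 0.10 without cKO replicate 1 and 0.60 without CTR replicate 3.

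The neuropilins were expressed at an even level. Nrp1 (chromosome 8, 128358604 to 128503363, + strand, ENSMUSG00000025810.9), the co-receptor for VEGF-A and semaphorin 3A, was measured at 782, 714, 901 and 847.5 CPM in CTR and at 739, 882, 827 and 845 CPM in cKO. Nrp2 (chromosome 1, 62703285 to 62818695, + strand, ENSMUSG00000025969.15), the co-receptor for VEGF-C and semaphorin 3F, was measured at 256.4, 248.9, 274 and 323 CPM in CTR and at 279.7, 299, 271 and 293 CPM in cKO. For both genes, all cKO libraries lay within the CTR range. The log2 difference was 0.021 for Nrp1 (standard error 0.10, 95% interval -0.21 to 0.25) and 0.052 for Nrp2 (standard error 0.10, 95% interval -0.18 to 0.28), and these were the narrowest intervals of the 8 genes. Without CTR replicate 2 the value for Nrp1 changed sign, to -0.0409.

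Kdr (chromosome 5, 75932827 to 75978458, - strand, ENSMUSG00000062960.10), the main signaling receptor for VEGF-A, had 29, 29, 19 and 0 counts in CTR and 39, 0, 31 and 0 counts in cKO. Flt1 (chromosome 5, 147561604 to 147726011, - strand, ENSMUSG00000029648.13), the receptor that binds VEGF-A and VEGF-B, had 24 counts in cKO replicate 1 and 0 in the other 7 libraries. Libraries with and without Kdr reads occurred in each genotype, and Kdr did not exceed 1.19 CPM in any of the 8. By the number in the sample title, described below, Kdr was at 0.589 to 1.19 CPM for 67 to 86. For 26 to 32 it was at 0 to 0.886 CPM. Neither gene had a count in every library, so neither was among the 8 genes tested. When all genes with a count were fitted, Kdr gave a log2 difference between genotypes of -0.17 with a standard error of 1.64. For title numbers 67 to 86 against 26 to 32 it was 3.37 with a standard error of 1.98. A count of 0 allows up to 3 counts, or 0.0785 to 0.0966 CPM depending on the library, and this limit covers counting error only. In bulk samples such as these, fewer cells of a type and less RNA per cell cannot be told apart. Among the 14 endothelial markers, 4 had counts in every library, among them Vwf, von Willebrand factor, at 52 to 220 counts and Emcn, endomucin, at 13 to 173, whereas Pecam1 had counts in 4 libraries and Cdh5 in 2, and 3 were at 0 throughout. CTR replicate 1, with 29 counts of Kdr, had 169 of Vwf, 112 of Emcn and 0 of Pecam1 and Cdh5. CTR replicate 2 (29 of Kdr) had 0 of Pecam1 and 20 of Cdh5, and CTR replicate 3 (19 of Kdr) had 52 and 7. In cKO replicates 1 and 3 (39 and 31 of Kdr), Pecam1 was at 3 and 0 and Cdh5 at 0. Of the libraries without Kdr reads, CTR replicate 4 had 0 of both, and cKO replicates 2 and 4 had 6 and 21 of Pecam1 and 0 of Cdh5. The part of residual endothelial RNA in the counts of Kdr and Flt1 was not tested.

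**Figure D1:**
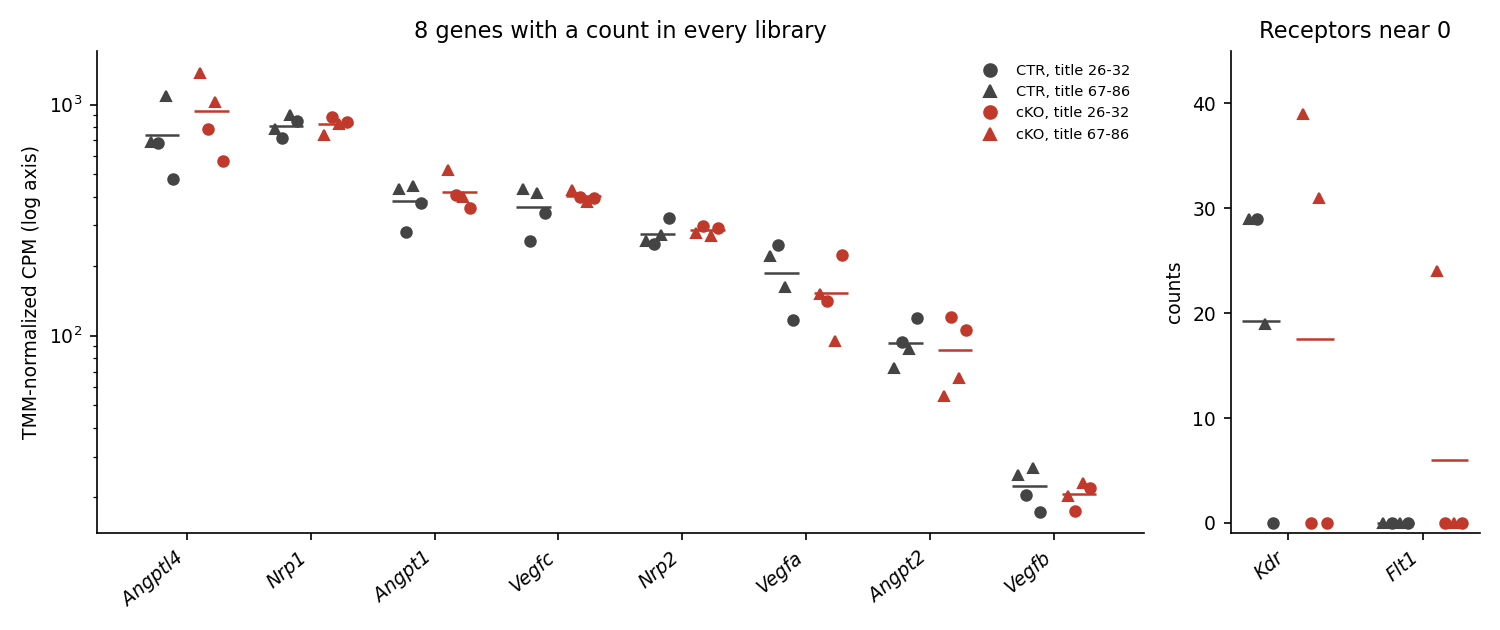
The plot gives the level of each gene in the 8 libraries by genotype, in CPM on a log axis for 8 genes and in counts for Kdr and Flt1, with bars at the genotype means and with symbols for the number in the sample title (circles 26 to 32, triangles 67 to 86). CTR and cKO points overlap for each of the 8 genes in CPM, and Nrp1 (714 to 901 CPM) and Nrp2 (248.9 to 323 CPM) show the narrowest spread.

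Among 12 further genes of the family, the ligands other than Vegfd and the receptors showed the same division. Pgf, the placental growth factor and a ligand of VEGFR1, had a median of 37.7 CPM per kilobase, near that of Vegfa at 36.7, and Angpt4, a further ligand of TIE2, had 109.5, above Angpt1 at 77.3. Vegfd, the close relative of Vegfc, had only 3 to 61 counts. Among the receptors, Tek (TIE2) was at 0 in all 8 libraries, Tie1 had 0 to 27 counts, and Flt4 (VEGFR3) had 0 to 202 counts. In CPM per kilobase, the highest value in any library was 0.76 for Flt4, 0.168 for Tie1, 0.132 for Kdr and 0.0543 for Flt1. By comparison, the lowest value of any ligand other than Vegfd was 10.8, for Vegfb.

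**Figure D2:**
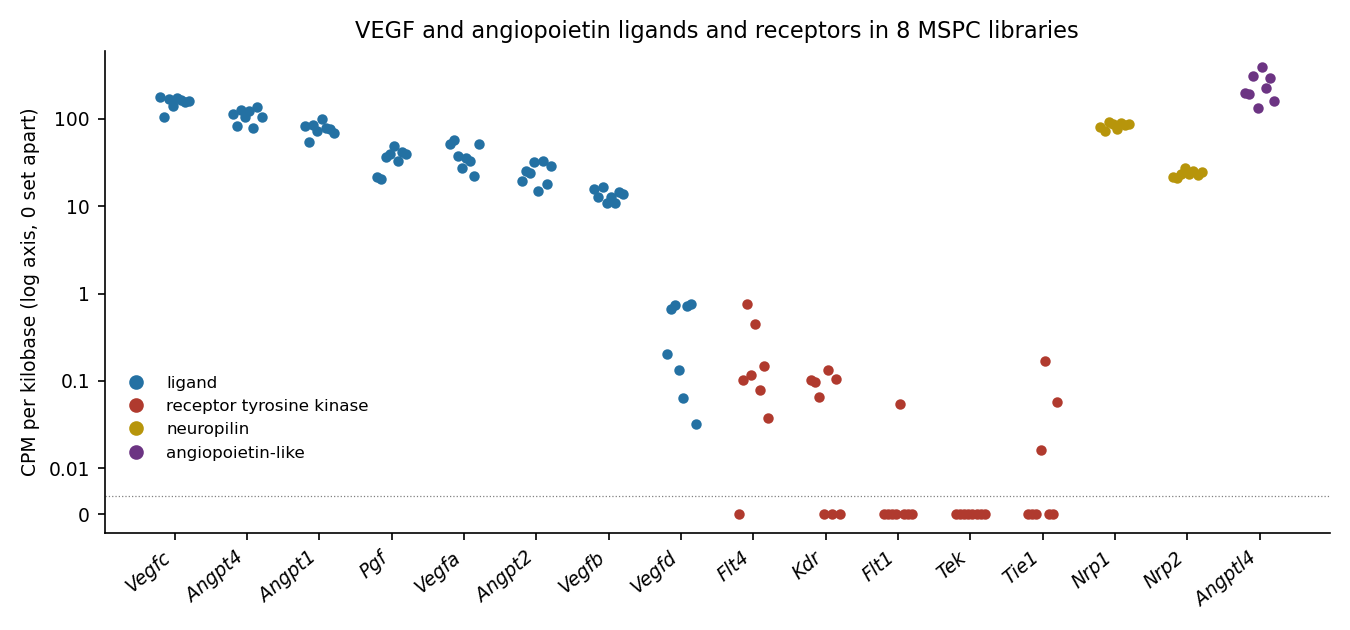
Each point is the level of a gene in 1 of the 8 libraries in CPM per kilobase of exon on a log axis, with values of 0 set apart, for ligands, receptor tyrosine kinases, neuropilins and Angptl4. The 5 receptor tyrosine kinases stay at or below 0.76, whereas every ligand but Vegfd, both neuropilins and Angptl4 lie at 10.8 or above.

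Ordered by median CPM per kilobase, the 8 genes ran from Angptl4 (209) through Vegfc (163), Nrp1 (85.5), Angpt1 (77.3), Vegfa (36.7), Angpt2 (24.7) and Nrp2 (23.4) to Vegfb (13.2). Neighbors in this order were compared within libraries by a two-sided exact sign-flip permutation test over 8 libraries, whose smallest p is 0.00781, with adjustment over 7 pairs. Angptl4 exceeded Vegfc in 6 of 8 libraries (exact permutation test, adjusted p = 0.0437), Angpt1 exceeded Vegfa in 7 of 8 (adjusted p = 0.0365 by the exact permutation test), and Vegfa exceeded Angpt2 in 7 of 8 (adjusted p = 0.041 by the exact permutation test). The steps from Vegfc to Nrp1 and from Nrp2 to Vegfb held in 8 of 8 libraries (adjusted p = 0.0273 each, exact permutation test). Nrp1 and Angpt1 were not separated beyond their spread (6 of 8 libraries, adjusted p = 0.228 by the exact permutation test), and neither were Angpt2 and Nrp2 (5 of 8 libraries, adjusted p = 0.992 by the exact permutation test). With 7 libraries the smallest p is 0.0156, and between 0 and 5 of the 7 steps passed when 1 library was left out. The exon length also matters for this order: with the longest annotated transcript in place of all annotated exons, Nrp2 (41.2) stood above Angpt2 (25.6) in 8 of 8 libraries (adjusted p = 0.0182 by the exact permutation test). With that length the median of Nrp1 (229) stood above that of Vegfc (163), so the step from Vegfc to Nrp1 was reversed. The medians of Nrp1 and Angptl4 (223) were not separated (Nrp1 higher in 4 of 8 libraries, adjusted p = 0.648 by the exact permutation test).

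Between genotypes, 5 of the 8 genes were higher in cKO and 3 were lower, and 0 passed an adjusted p of 0.05 in edgeR's quasi-likelihood test, where 0.0% of all 14598 genes tested passed. Also at an unadjusted p under 0.05, 0 of the 8 passed in edgeR, DESeq2 and limma-voom, against 4.43% of all genes in edgeR, 2.35% in the higher and 2.08% in the lower direction. In none of the 8 were CTR and cKO without overlap, a pattern seen in 2.61% of all genes. The median size of the log2 difference was 0.124 over the 8 genes and 0.141 over all genes tested. In the exact permutation test over 70 assignments, which can reach 0.0286, the smallest p of the 8 genes was 0.371, for Angptl4. The data bound the differences unequally, since the 95% intervals reach a log2 value of 0.25 for Nrp1, 0.50 for Angpt1, -0.91 for Vegfa and 1.00 for Angptl4.

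The spread between mice differed among the genes. Within genotypes, the standard deviation of log2 CPM was 0.13 for both Nrp1 and Nrp2, which placed them at percentiles 8.7 and 8.3 of all genes tested, where the median was 0.30. Vegfb (0.24), Vegfc (0.25) and Angpt1 (0.27) lay near that median. Angpt2 (0.43), Vegfa (0.49) and Angptl4 (0.52) varied most, at percentiles 69.2, 74.6 and 76.4. The secreted factors thus differed more from mouse to mouse than the neuropilins, as a description of these 8 libraries.

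The sample titles carry a number in brackets whose meaning the labels do not state. It falls between 26 and 32 for replicates 2 and 4 of each genotype and between 67 and 86 for replicates 1 and 3, so that each range holds 4 libraries, 2 of each genotype. In edgeR fits with genotype as a covariate, 2 (0.0137%) of all genes tested differed between the title ranges at an adjusted p of 0.05. At an unadjusted p under 0.05 it was 11.6%. Among the 8 angiogenic genes, 0 passed the adjusted threshold in edgeR and 3 had an unadjusted p under 0.05. Of these 3, Angptl4 and Angpt1 were higher at 67 to 86, as were 5.1% of all genes at such a p, and Angpt2 was lower, as were 6.5%. The median size of the log2 difference was 0.278 over the 8 genes and 0.191 over all genes tested.

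Angpt2 was measured at 94.3, 119, 120.2 and 106 CPM in the libraries numbered 26 to 32 (CTR replicates 2 and 4, then cKO replicates 2 and 4) and at 72.55, 87.7, 55.0 and 65.6 CPM in those numbered 67 to 86 (CTR replicates 1 and 3, then cKO replicates 1 and 3). The ranges did not overlap, which was the case for 7.69% of all genes tested. Its log2 difference of 67 to 86 from 26 to 32 was -0.66 (standard error 0.14, edgeR unadjusted p = 0.00132, adjusted p = 0.178, exact permutation p = 0.0286), and it was -0.41 within CTR and -0.91 within cKO. DESeq2's Wald test, by which 2.6% of all genes passed, gave -0.66 with an adjusted p of 0.00509.

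Angptl4 was measured at 686, 476, 788 and 569.7 CPM in the libraries numbered 26 to 32, in the same order, and at 689.9, 1094, 1375 and 1024 CPM in those numbered 67 to 86. Only cKO replicate 2 of the lower range exceeded CTR replicate 1 of the higher range. The log2 difference was 0.72 (standard error 0.19, edgeR unadjusted p = 0.00482, adjusted p = 0.236, exact permutation p = 0.0571), with 0.61 within CTR and 0.82 within cKO, and DESeq2's Wald test gave an adjusted p of 0.0151. Angpt1 passed in neither tool, with ranges that overlapped, means of 355 ± 53.7 (SD, n = 4) CPM for 26 to 32 and 449 ± 51.6 CPM for 67 to 86, and a log2 difference of 0.34 (standard error 0.12, edgeR unadjusted p = 0.0223, adjusted p = 0.35). The calls for Angpt2 and Angptl4 between title ranges thus rest on the tool. Without CTR replicate 2, which had the lowest Angpt1, its difference was 0.25.

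**Figure D3:**
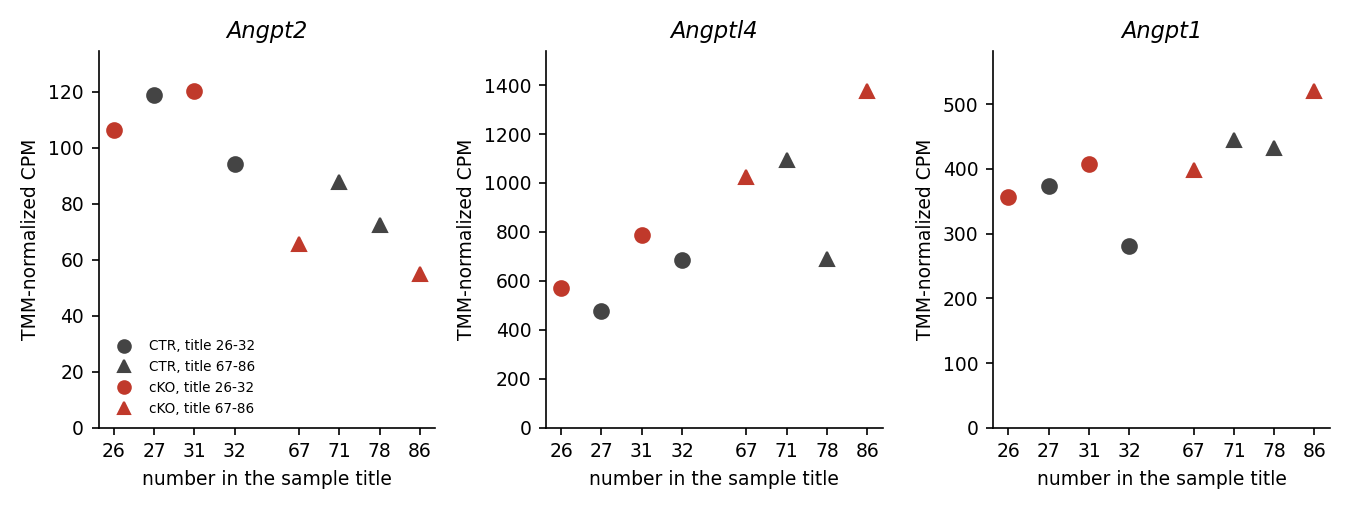
CPM of Angpt2, Angptl4 and Angpt1 in each library against the number in the sample title, with CTR in grey and cKO in red. Angpt2 is at 94.3 CPM or above in all 4 libraries numbered 26 to 32 and at 87.7 CPM or below in all 4 numbered 67 to 86, whereas Angptl4 and Angpt1 lie mostly higher at 67 to 86.

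Marker genes of MSPCs and of other cells also differed in level between the title ranges, none past the adjusted threshold. Of 9 MSPC markers, 3 were higher and 6 lower at 67 to 86, with a median log2 difference of -0.0928. Their summed level, in which Cxcl12 and Lpl weigh most, was nonetheless 57590 to 64920 CPM at 26 to 32 and 66440 to 74660 CPM at 67 to 86. Lpl, which encodes the lipoprotein lipase that Angptl4 inhibits, had a log2 difference of 0.69 (edgeR adjusted p = 0.112), Adipoq, a fat cell hormone, 0.45 (adjusted p = 0.204), and Kitl, which encodes SCF, -0.36 (adjusted p = 0.397). The summed level of 8 osteolineage and chondrocyte markers, 11420 to 14340 CPM at 26 to 32 and 8325 to 11020 CPM at 67 to 86, was almost all Ibsp, a bone matrix protein (-0.44, edgeR adjusted p = 0.223). Of the 7 tested in that list, 3 were higher, among them the phosphatase Alpl (0.34, edgeR adjusted p = 0.35), and 4 lower. Of 10 hematopoietic markers tested, 8 were higher and 2 lower at 67 to 86 (median log2 difference 0.43). The red cell genes Hbb-bs (0.89, edgeR adjusted p = 0.177), Hba-a1 (0.62) and Slc4a1 (0.74) were among the higher. The largest in size was lower, Itga2b (-1.32, edgeR adjusted p = 0.238), with a mean of 1.61 CPM. In edgeR, 3 of the higher and the 2 lower had an unadjusted p under 0.05, against 5.1% of all genes higher and 6.5% lower. The list's summed level overlapped, at 242.6 to 304 CPM against 260.8 to 344.5 CPM. Of 5 pericyte and smooth muscle markers tested, 1 was higher and 4 were lower, and Rgs5, a pericyte marker, had the largest difference (-1.49, edgeR adjusted p = 0.112), with summed levels of 136.4 to 216.4 CPM against 120.0 to 175.2 CPM. Their part in the values of Angpt2, Angptl4 and Angpt1 was not tested. Of the 7 tested in the family list, Angpt4 was higher at 67 to 86 (log2 difference 0.42, edgeR adjusted p = 0.266). Angptl1 (-1.39, edgeR adjusted p = 0.223) and Angptl2 (-0.42, adjusted p = 0.259) were lower. Each had an unadjusted p under 0.05 in edgeR, as did 11.6% of all genes tested, and none passed the adjusted threshold.

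Within the title ranges, the genotype difference of Vegfa was 0.065 at 26 to 32 and -0.66 at 67 to 86, that of Vegfc was 0.43 and -0.077, and that of Angpt2 was 0.095 and -0.41. Angptl4 was higher in cKO in both ranges, by 0.23 and 0.45, as were Angpt1, by 0.24 and 0.054, and Nrp2. A test of whether the genotype difference itself differed between the title ranges gave 0 of 8 genes past the adjusted threshold and 0 at an unadjusted p under 0.05 in edgeR, where 0.0% and 3.44% of all genes passed. The nearest was Vegfc (-0.49, standard error 0.22, edgeR unadjusted p = 0.0548).

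**Figure D4:**
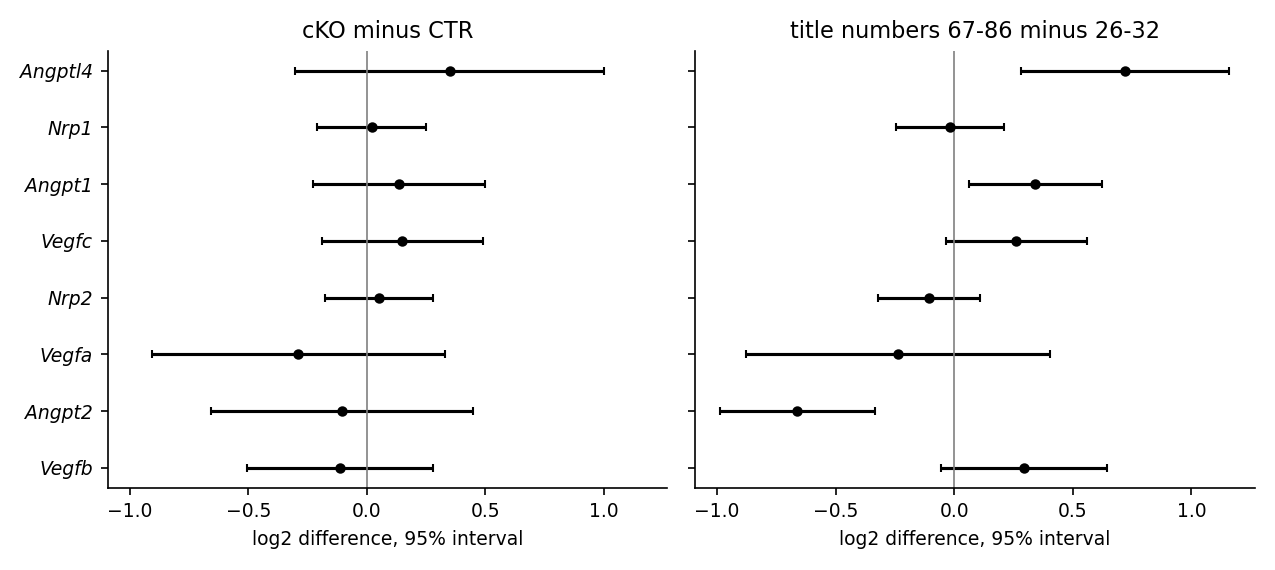
Log2 differences with 95% intervals for the 8 genes tested, cKO minus CTR and title numbers 67 to 86 minus 26 to 32. All 8 genotype intervals include 0, and the title intervals of Angpt2 (-0.99 to -0.33), Angptl4 (0.28 to 1.16) and Angpt1 (0.06 to 0.62) do not, before adjustment over genes.

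Across the 8 libraries, 28 pairs of the genes were correlated on log2 CPM, and 0 passed after adjustment. The closest pair was Vegfc and Angpt1, ligands that were lowest together in CTR replicate 2, with Pearson's r = 0.88 (exact permutation p = 0.00419, adjusted p = 0.117) and Spearman's rho = 0.86 (exact permutation p = 0.0107, adjusted p = 0.30). Without the 2 libraries farthest from the median of Vegfc, r was 0.69, and it was 0.82 after centering within title ranges, which with 4 libraries each are too small for an r of their own. Angpt2 and Angptl4 ran in opposite directions (r = -0.76, exact permutation p = 0.0334, adjusted p = 0.468 for r, and rho = -0.67, exact permutation p = 0.0831, adjusted p = 0.605), and r was -0.40 without the 2 farthest libraries and -0.34 after centering.

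Some genes outside the family had nearly the same profile over the 8 libraries, among the 9405 genes whose mean reached 10 CPM. The genes most like Angpt1 were Cavin2 (r = 0.99) and Hnmt (0.99), those most like Angptl4 were Esd (0.96) and Unc13a (0.95), those most like Vegfa were Mrpl43 (0.97) and Cep76 (0.96), and those most like Nrp1 were Lrrc42 (0.97) and Ccdc137 (0.90). These are the highest values of r picked from 9405 genes, over 8 points that share library and depth. Because such a choice gives high values by itself, they are descriptions and were not tested.

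The neuropilins also pair with plexins to bind semaphorins, and of 12 semaphorin and plexin genes, 6 had a count in every library. Plxnd1, the receptor of semaphorin 3E, was the most abundant with a median of 37.8 CPM per kilobase, followed by Plxna2 (20.3) and Plxna1 (13.4), while Sema3e itself was at 0 in every library. By genotype 1 was higher and 5 were lower in cKO, 0 passed the adjusted threshold, and the median log2 difference was -0.24 against -0.00133 over all genes tested. Plxna2 alone had an unadjusted p under 0.05 (log2 difference -0.31, edgeR adjusted p = 0.999), a level that 2.08% of all genes reached in the lower direction. The largest values in size were -0.66 for Sema3a and 0.34 for Plxna3, neither past an unadjusted p of 0.05.

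Vegfa and Angptl4 are known targets of hypoxia-inducible factors, and Angptl4 also of the PPAR nuclear receptors. Of 14 genes of these pathways, 12 were tested, 6 were higher and 6 lower in cKO, 0 passed the threshold adjusted or unadjusted in edgeR, and the median log2 difference was -0.0139. Epas1 (HIF-2α) had a median of 118.9 CPM per kilobase, Pparg, the regulator of fat cell genes, 43.8, and Hif1a 32.9. Ppara (0.63) and Rxra (0.33), the partner of the PPARs, had the largest log2 differences in size, with standard errors of 0.46 and 0.16. Between title ranges Hif1a had a log2 difference of -0.26 (edgeR adjusted p = 0.414), with an unadjusted p under 0.05 as for 11.6% of all genes.

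Among 16 other secreted modulators of angiogenesis, of which 15 were tested, the most abundant were Sparc, a matrix glycoprotein (1436 CPM per kilobase), Esm1, a proteoglycan best known from endothelial cells (1031), and Ccn2, connective tissue growth factor (213.8). By genotype 4 were higher and 11 lower in cKO, 0 passed the adjusted threshold, and the median log2 difference was -0.19. The genes with an unadjusted p under 0.05 were 4, all lower in cKO, Serpinf1, the antiangiogenic factor PEDF (log2 difference -0.50), the protease Adamts1 (-0.54), Apln, the peptide apelin (-1.30), and Dcn, decorin (-0.34), with an edgeR adjusted p of 0.999 each. Such a p in the lower direction was reached by 2.08% of all genes tested. Hgf, hepatocyte growth factor, had the next largest difference after Apln (-0.82, standard error 0.40), and Apln and Hgf were low, at means of 2.47 and 8.02 CPM. Immediate early genes, which respond to cell handling, had lower summed levels in cKO (1176 to 1458 CPM) than in CTR (1584 to 1703 CPM). For single genes, such a lack of overlap was seen in 2.61% of all genes tested. Of 13 immediate early genes tested, 1 was higher and 12 were lower in cKO, and 0 passed the adjusted threshold. In edgeR, 5 of the lower had an unadjusted p under 0.05, against 2.08% of all genes in that direction. The part of the immediate early genes in the values of the secreted modulators was not tested.

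Finally, 10 genes of endothelial signaling downstream of or beside these ligands were examined, of which 8 were tested. Ephb4, a receptor of ephrin B2 (20.5 CPM per kilobase), Eng, the TGF-β co-receptor endoglin (18.0), and Svep1, a matrix protein (14.3), were the most abundant, whereas Ptprb, the phosphatase that restrains TIE2, was at 0 in every library and Dll4 had 0 to 7 counts. By genotype 3 were higher and 5 lower in cKO, 0 passed adjusted or unadjusted in edgeR, and the median log2 difference was -0.0464. The largest were Efnb2, the ligand ephrin B2 (-1.06, standard error 0.58), and Shb, an adaptor of VEGFR2 (0.53, standard error 0.27). In the family list, 7 of 12 genes were tested, 5 higher and 2 lower in cKO with a median log2 difference of 0.14, and Pgf had a log2 difference of 0.46 (standard error 0.22), with 0 past the threshold adjusted or unadjusted.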

How the data were processed

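MSPC RNA from 8 mice was sequenced after poly(A) selection. According to the methods and the processing notes, the authors trimmed paired reads, aligned them to GRCm38 (mm10) with HISAT2 and counted them per gene with HTSeq, and deposited raw counts without normalization. Tool versions are not given in the sources used here, and the use of strand in counting is not stated. Of counts from 1 to 19, 59.6% were odd, and the counts were used as deposited. Identifiers were matched to GENCODE M21 for symbols, positions and union exon lengths (52489 of 52636 genes), and promoters came from RefSeq. Total counts were 31047344 to 38216877 per library.

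From the counts, TMM-scaled CPM were computed, and edgeR 4.0.16 in R 4.3.3 was run on the 14598 genes counted in all 8 libraries. Its quasi-likelihood test was used with Benjamini-Hochberg adjustment over these genes and a threshold of 0.05. The genotype fit had no covariate. Title ranges were fitted with genotype as a covariate, and the interaction fit held genotype and title range. Log2 CPM used a prior count of 2. Exact permutation tests enumerated 70 assignments of libraries. Neighbors in level and pairs of genes were tested by exact permutation in scipy 1.17.1. Fits were tested on simulated data. Groups followed the genotype label, and the ranges of the title numbers served as a possible batch of unstated meaning. Alternatives were other scalings and filters, DESeq2 1.42.0 (Wald and likelihood ratio), limma-voom 3.58.1, the title range as a term, the replicate number as a block, another exon length and each library left out. Fits of the title ranges without a filter, and the single-library omissions for the interaction and the gene pairs, were chosen after seeing the data. The gene set and the pathway lists were chosen with earlier results of these data known. Named from each list were the 3 genes highest per kilobase, the 2 with the largest genotype difference and, beyond that rule, genes at 0 or with an unadjusted p under 0.05, chosen after their values were seen. An item that this rule names is not reported here. Single-cell data of the study were not analysed here.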

Additional observations from a re-analysis of the deposited data

Results flagged for a closer look

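Flt1 in cKO replicate 1 stood apart from the other cKO libraries, with 24 counts or 0.733 CPM against 0 in the other 3, so that its gap to the nearest library made up all of the range (a ratio of 1.0, above Dixon's 95% limit for 4 samples). With the other 3 libraries at 0, any count above 0 gives this ratio, so it is a description and not a test. It was 1 of 19 groups of 4 libraries examined, in which chance alone gives about 0.95 such results. The same library had 27 counts of Tie1, 39 of Kdr and 121 of Flt4, but 3 counts of Pecam1, 0 of Cdh5 and the lowest summed endothelial marker level of all 8, 7.182 CPM.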

How the results depend on the processing

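For genotype, 0 of the angiogenic genes passed the threshold in any of the 21 fits across genes, and of 176 values of a log2 difference under an alternative, 166 kept their direction. The signs that changed were those within the title range 26 to 32 for Vegfa (0.0651), Vegfb (0.0593) and Angpt2 (0.095), those within 67 to 86 for Vegfc (-0.0768) and Nrp1 (-0.103), and those of Nrp1 (-0.0409 to 0.0704) and Angpt2 (-0.303 to 0.0563) with 1 library left out. Over all genes, the number past the threshold by genotype was 0 in edgeR, 1 with no filter, with filterByExpr or with a mean of at least 1 CPM, 23 with DESeq2's Wald test, 22 with its likelihood ratio test, 47 with the title range added to the latter, and 0 to 0 with 1 library left out. With the replicate number as a block it was 0 of all genes and 0 of the angiogenic genes, and same-numbered libraries deviated together by correlations of 0.131, 0.176, 0.0844 and 0.0572, so the numbers were not taken as pairs.

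For the title ranges, all genes past the threshold numbered 2 in edgeR, 4 with no filter, 1 with DESeq2's size factors, 380 with DESeq2's Wald test and 0 to 4 with 1 library left out (0 without CTR replicate 1 or 2 or cKO replicate 4). Of the angiogenic genes, 2 passed with DESeq2's Wald test, Angpt2 and Angptl4, and 0 with each other alternative run, and Nrp1 lay between -0.0915 and 0.041 with 1 library left out. The interaction called 0 to 3 genes with 1 library left out, the order of levels separated 0 to 5 of 7 neighbors, and 0 to 1 of 28 pairs correlated, the 1 without cKO replicate 4. The causes were not tested. With 4 mice per genotype, the intervals leave changes of up to a log2 value of 1.00 for Angptl4 undetected, and Kdr and Flt1 were too low for a useful interval.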
